A study of Homo sapiens with 6 samples.

Results

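Notch receptors, their ligands and the HES-type genes that they switch on were examined as a set of 10 genes in U87MG cells, an established human glioblastoma line. The members are NOTCH1, NOTCH2 and NOTCH3 (receptors), JAG1, JAG2 and DLL1 (ligands), and HES1, HES4, HEY1 and NRARP (targets). They were chosen by symbol, and all 10 have an Ensembl identifier among the 65988 in the count files. Wild-type cells were given either vehicle alone (3 control libraries) or RSL3 at 2 µM (3 libraries). RSL3 is an inhibitor of the lipid peroxidase GPX4 that triggers ferroptosis, an iron-dependent form of cell death. The treatment lasted 24 h, a time that the labels do not give. The labels do not say whether the libraries came from separate cultures. The study's methods describe its replicates in general as biologically independent, without naming these libraries, so the p-values measure the spread between libraries, whatever its source. The comparison addresses which RNA levels differ between RSL3-treated and vehicle-treated cells. No library combined RSL3 with an inhibitor of ferroptosis.

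Notch signalling passes between neighbouring cells. A ligand of the Jagged or Delta-like kind on one cell pulls on a Notch receptor of the next, ADAM proteases and then gamma-secretase cut the receptor, and the freed intracellular part enters the nucleus and joins the DNA-binding protein RBPJ and a Mastermind coactivator. Genes of the HES and HEY families, which encode transcriptional repressors, are the classical targets, and NRARP, also a target, restrains the pathway. In glioma the pathway is studied for its part in keeping cells in a stem-like state.

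The clearest feature of the promoters is in HES1 and HES4, whose RNA was scarce in every library. RefSeq promoter sequences (GRCh38.p14) of 8 of the 10 members were used, and those of DLL1 and HEY1 were not analysed here. The 250 bases before each start were searched on both strands for TGGGAA, the core of the RBPJ site, for its longer form GTGGGAA, which contains it, and for the variant GTGTGAA. These spellings were chosen after the sequences had been seen. The starts are those of RefSeq, which for NOTCH2, JAG2 and HES4 lie inside the gene coordinates given below. All of the NOTCH2 window and part of the other windows named here therefore fall within those coordinates. In HES4 this part holds GTGTGAA and most of GTGGGAA. Of the 8, only HES1 and HES4 held any of the 3. In the sequences below, given 5′ to 3′ in the direction of the gene, capitals mark the matches. HES1 lies on the plus strand (chr3:194135898-194136147) and HES4 on the minus strand (chr1:1000098-1000347).
HES1: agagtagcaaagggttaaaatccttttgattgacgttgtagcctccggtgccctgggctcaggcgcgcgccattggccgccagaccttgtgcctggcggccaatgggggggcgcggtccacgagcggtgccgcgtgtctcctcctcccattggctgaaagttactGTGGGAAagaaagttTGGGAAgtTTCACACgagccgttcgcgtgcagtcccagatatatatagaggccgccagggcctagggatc
HES4: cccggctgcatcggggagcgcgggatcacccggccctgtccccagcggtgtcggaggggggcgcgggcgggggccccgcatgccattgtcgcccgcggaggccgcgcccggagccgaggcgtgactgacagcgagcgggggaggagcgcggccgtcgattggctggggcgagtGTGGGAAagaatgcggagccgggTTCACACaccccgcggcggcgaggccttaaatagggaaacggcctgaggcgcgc

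In both promoters GTGGGAA is read in the direction of the gene and GTGTGAA on the opposite strand, with 16 bases between them. HES1 holds TGGGAA 2 times and HES4 1 time. Of 35116 promoter windows of this length, 20.8% hold TGGGAA, 5.43% hold GTGGGAA and 2.48% hold GTGTGAA, and 66 windows (0.188%) hold the latter 2 together. A match is a description of the letters and not a binding site, and its absence from the other 6 windows says nothing about RBPJ there.

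Total counts ranged from 27813462 to 43306335 per library, with a median of 33575028. The filter on low counts left 16105 genes, of which 4123 (25.6%) were called in edgeR's quasi-likelihood test at an adjusted p under 0.05, 12.9% of all tested genes upward and 12.7% downward. GPX4 fell (log2 fold change -0.42) and HMOX1, a stress-induced heme oxygenase, rose (0.95) in the same test. Defining genes of other cell types were at or near background for leukocytes (4 markers, summed normalized count from 0 to 3.14), and CDKN2A, CDKN2B and MTAP, which U87MG cells lack, had 0 counts in all 6 libraries. VIM, CD44 and CHI3L1 were abundant, and all 3 were lower with RSL3 (log2 fold changes -0.29, -0.39 and -0.56, each called in edgeR). The summed normalized count of the 8 markers of the line was 98632 to 100205 in control and 77912 to 81931 in RSL3 libraries, and its part in the results was not tested. VIM made up most of this sum, with a mean of 68288 in control and 55891 in RSL3 libraries. The estimates of GFAP, NES and OLIG2 went the other way (log2 fold changes 0.40, 0.25 and 0.13), and none of these was called in edgeR. OLIG2 and GFAP were detected, whereas SOX2 and S100B had at most 2 counts in any library, so the glial label rests on some of its markers only. Of 4 endothelial markers, PECAM1, CDH5 and TEK had at most 8 counts, and only KDR passed the filter (log2 fold change 0.54, edgeR adjusted p = 0.0103). The summed endothelial level was 107 to 127 normalized counts in control and 150 to 177 in RSL3 libraries, and its part in the results was not tested. Of the 3 epithelial markers only EPCAM passed the filter, and the summed level was 22.1 to 25.9 in control and 8.05 to 26.0 in RSL3 libraries. Among 3 neuronal markers SYT1 rose and SNAP25 fell, and among 3 oligodendrocyte markers MBP rose while MOG was at 0. The neuronal sum was 1028 to 1116 normalized counts in control and 1127 to 1154 in RSL3 libraries. SYT1 made up most of it, with means of 888 in control and 1047 in RSL3 libraries. The oligodendrocyte sum was 79.9 to 106 in control and 141 to 160 in RSL3 libraries. The part of both sums in the results was not tested.

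Of the 10 members, 3 were upregulated in RSL3-treated cells (NOTCH3, NOTCH1 and HEY1), 0 were downregulated, 4 were tested and not called (NOTCH2, JAG1, JAG2 and HES1), and 3 were too scarce to test (DLL1, HES4 and NRARP). The share of all tested genes called upward was 12.9%. The median log2 fold change of the 7 tested members was 0.24, against -0.0044 over all tested genes. In the same 3 members the RSL3 libraries all lay above the control libraries, and over all tested genes 38.6% had groups that did not overlap. Normalized counts are counts divided by the TMM-adjusted library size and scaled to the mean library size.

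**Figure D1:**
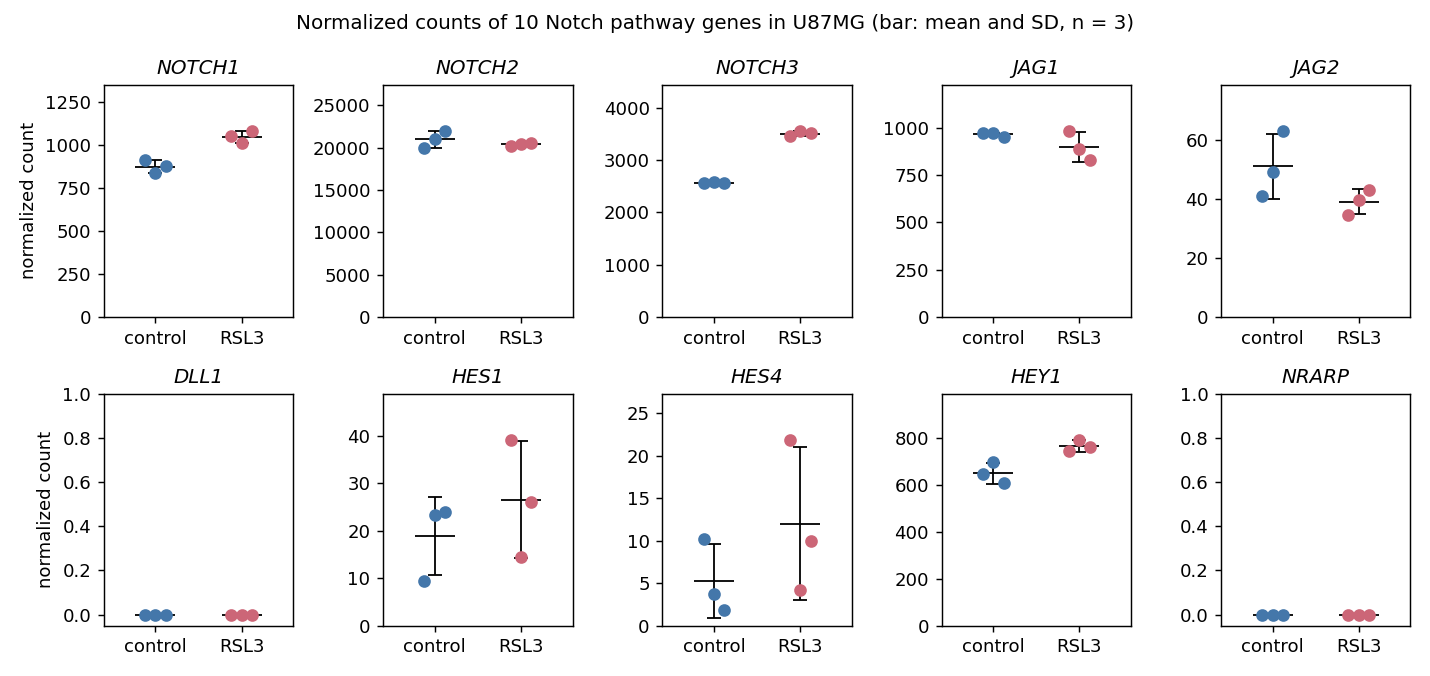
Each panel plots 1 gene, with the normalized count on the y axis and 1 point per library for control (blue) and RSL3 (red); the line and bar are the mean and SD of 3 libraries. The RSL3 points lie above all control points for NOTCH1, NOTCH3 and HEY1, the groups overlap for the other genes with counts, and DLL1 and NRARP are at 0 throughout.

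NOTCH3 (ENSG00000074181, minus strand of chromosome 19 of GRCh38, 15159038 to 15200995) changed most clearly among the receptors. Its normalized count was 2554, 2587 and 2566 in control replicates 1, 2 and 3, and 3455, 3547 and 3506 in RSL3 replicates 1, 2 and 3. The 3 RSL3 libraries stood far above the 3 control libraries, which differed little among themselves. From 2569 ± 16.3 (SD, n = 3) to 3503 ± 46.1 (SD, n = 3), the fold was 1.36, or 0.45 on the log2 scale (standard error 0.03, adjusted p = 4.21e-09 in edgeR). Ordered by p over all tested genes, NOTCH3 was number 94, and by size it was number 409 of the 2082 upregulated genes. The call was made in all 18 alternative fits, with log2 fold changes between 0.43 and 0.46.

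NOTCH1 (ENSG00000148400, minus strand of chromosome 9, 136494433 to 136546048), the receptor best known from T-cell leukaemia, rose by less. Its normalized count was 912, 835 and 877 in the control libraries and 1052, 1012 and 1080 in the RSL3 libraries, again without overlap. The means were 875 ± 38.6 (SD, n = 3) and 1048 ± 34.01 (SD, n = 3), a log2 fold change of 0.26 with a standard error of 0.06 (adjusted p = 0.0017 in edgeR). NOTCH1 was called in all 18 alternatives, with log2 fold changes from 0.23 to 0.29 and a largest adjusted p of 0.0254, in DESeq2 with 2 surrogate variables.

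NOTCH2 (ENSG00000134250, minus strand of chromosome 1, 119911553 to 120100779) was by far the most abundant receptor and was not called. Control libraries held 19928, 21064 and 21925 normalized counts and RSL3 libraries 20177, 20425 and 20544, so that the RSL3 values lay inside the control range. The log2 fold change was -0.04, with a 95% interval from -0.11 to 0.03 (edgeR adjusted p = 0.397). That interval lies below those of NOTCH1 (0.14 to 0.38) and NOTCH3 (0.38 to 0.52). NOTCH2NLA, a partial copy of NOTCH2 and the only one of 4 listed NOTCH2NL genes with an identifier here, had 224 ± 18.9 (SD, n = 3) and 221 ± 14.0 (SD, n = 3) normalized counts and was not called (log2 fold change -0.02, edgeR adjusted p = 0.947). Reads that align equally well to such copies cannot be assigned, so the NOTCH2 level is uncertain to that extent.

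**Figure D2:**
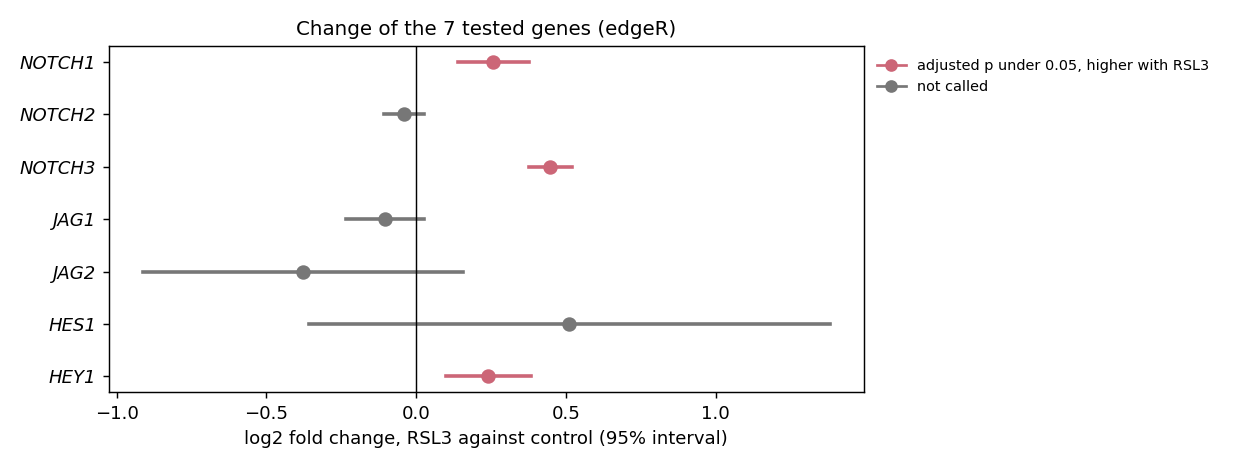
The x axis is the log2 fold change of RSL3 against control from edgeR, with points for the estimate and lines for the 95% interval of the 7 members tested. The intervals of NOTCH1, NOTCH3 and HEY1 (red) lie above 0, that of NOTCH2 is narrow around 0, and those of JAG2 and HES1 are wide.

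Per length, the receptors kept their order while their shares moved. Levels between genes were compared as RPKM (normalized reads per kilobase of exon and per 1000000 reads, with exon lengths from GENCODE v44). In control cells NOTCH2 stood at 36.7 ± 1.76 RPKM, NOTCH3 at 8.01 ± 0.0508 and NOTCH1 at 2.05 ± 0.0903 (SD, n = 3). After RSL3 they stood at 35.7 ± 0.328, 10.9 ± 0.144 and 2.45 ± 0.0796 RPKM (SD, n = 3). NOTCH2 lay at percentile 92.8 of the tested genes with a length in control cells, NOTCH3 at 68.1 and NOTCH1 at 39.9.

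Taking the 3 receptors as the total per length, the share of NOTCH2 was 77.6%, 78.6% and 79.3% in the control libraries and 72.8%, 72.7% and 72.8% in the RSL3 libraries. NOTCH3 supplied 17.7%, 17.2% and 16.5% in control and 22.2%, 22.5% and 22.1% in RSL3 libraries. NOTCH1 held 4.38% ± 0.315 (SD, n = 3) in control and 5.00% ± 0.160 (SD, n = 3) after RSL3. The groups did not overlap in any of the 3 shares. The exact two-sided permutation test gave p = 0.1 for each share, which is the smallest p that 3 libraries against 3 allow, so these differences could not pass 0.05 in this test. Since the shares sum to the whole, they are not independent of each other.

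**Figure D3:**
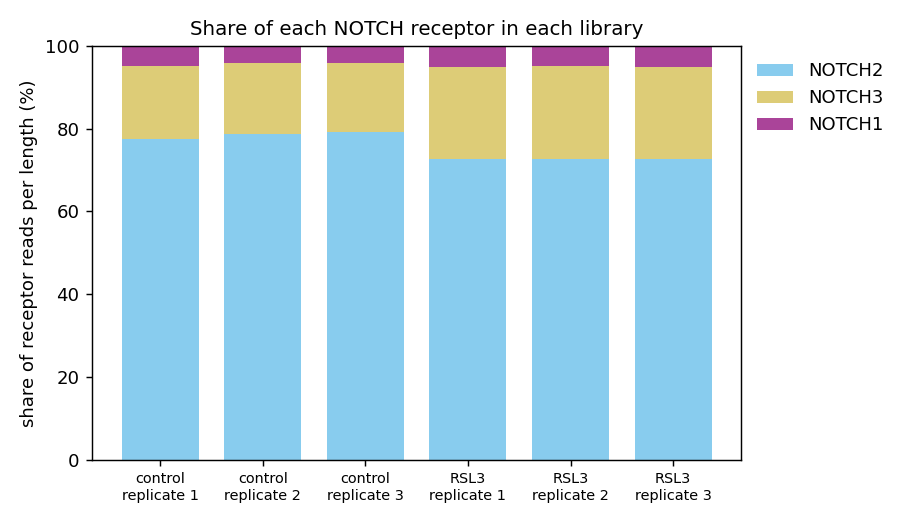
Each bar is 1 library, and the y axis gives the share of receptor reads per exon length in percent. NOTCH2 makes up 77.6% to 79.3% of the control bars and 72.7% to 72.8% of the RSL3 bars, and NOTCH3 fills most of the difference.

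None of the ligands was called. JAG1 (ENSG00000101384, minus strand of chromosome 20, 10637684 to 10673999) was the main ligand, with 970, 969 and 953 normalized counts in control and 980, 886 and 828 in RSL3 libraries. The RSL3 values were more spread than the control values and overlapped them, since RSL3 replicate 1 was the highest of all 6. The log2 fold change was -0.10 (95% interval -0.23 to 0.03, edgeR adjusted p = 0.245), and it went from -0.04 without RSL3 replicate 3 to -0.17 without RSL3 replicate 1. Of the exon bases of JAG1, 306 (3.29%) are shared with a lncRNA gene on the other strand, where unstranded reads cannot be assigned.

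JAG2 (ENSG00000184916, minus strand of chromosome 14, 105140982 to 105168824) was scarce, at 40.9, 49.2 and 62.8 normalized counts in control and 34.5, 39.5 and 42.9 in RSL3 libraries. The groups overlapped, and the interval of the log2 fold change ran from -0.91 to 0.15 around -0.38 (edgeR adjusted p = 0.316), so that a change of moderate size was not detectable at this depth. A lncRNA gene on the same strand shares 469 of its exon bases (7.33%). DLL1 (ENSG00000198719, minus strand of chromosome 6, 170282206 to 170306565) had 0 counts in each of the 6 libraries, of 204711511 counts in all. Allowing 3 counts per library, this limits DLL1 to between 0.0181 and 0.0282 RPKM, depending on the library, far below the 3.04 ± 0.0309 RPKM of JAG1 in control cells (SD, n = 3). FAM120B, on the other strand, shares 370 exon bases with DLL1 (9.69%). Such limits cover counting error only and hold for the reads that the authors' counting could assign.

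HEY1 (ENSG00000164683, chromosome 8), which encodes a repressor of the hairy-related family, was the only target called, and HES4 and NRARP were not tested. It had 643, 695 and 606 normalized counts in control libraries and 741, 789 and 761 in RSL3 libraries. All RSL3 libraries were above the highest control library, by a margin smaller than the range of the controls. Means were 648 ± 44.5 (SD, n = 3) and 764 ± 24.04 (SD, n = 3), a fold of 1.18, or 0.24 on the log2 scale (standard error 0.07, adjusted p = 0.012 in edgeR). The call was lost without control replicate 3 (0.20, adjusted p = 0.0596 in edgeR), without RSL3 replicate 2 (0.22, adjusted p = 0.0654 in edgeR) and in DESeq2 with 2 surrogate variables (0.24, adjusted p = 0.11).

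HES1 (ENSG00000114315, plus strand of chromosome 3, 194136148 to 194138732), the target most often read as a sign of Notch activity, was close to the filter. Raw counts were 12, 19 and 26 in control and 34, 14 and 26 in RSL3 libraries, which is 9.43, 23.4 and 24.03 against 39.1, 14.5 and 26.0 normalized counts. RSL3 replicate 1 was the highest library and control replicate 1 the lowest, and the other 4 were mixed. The log2 fold change of 0.51 had a 95% interval from -0.36 to 1.38 (edgeR adjusted p = 0.424). It was 0.14 without RSL3 replicate 1 and 0.15 without control replicate 1, so its size rests on these libraries.

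HES4 (ENSG00000188290, minus strand of chromosome 1, 998962 to 1000172) did not pass the filter, with raw counts of 13, 3 and 2 in control and 19, 4 and 10 in RSL3 libraries. The groups overlapped, and replicate 1 was the highest library in either group. NRARP (ENSG00000198435, minus strand of chromosome 9, 137299631 to 137302271) had 0 counts in all 6 libraries, which allows at most between 0.0262 and 0.0408 RPKM. Over all identifiers in the files, 32849 (49.8%) had 0 counts in every library.

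In control cells the order per length was NOTCH2, NOTCH3, HEY1 (3.47 RPKM), JAG1 (3.04), NOTCH1, HES1 (0.27), JAG2 (0.234) and HES4 (0.138), with DLL1 and NRARP at 0. Each of the first 5 stood above the next in every library, while HES1 overlapped JAG2 and JAG2 overlapped HES4. With RSL3 the first 6 places were the same, and HES4 (0.315 RPKM) came before JAG2 (0.179), with overlapping libraries. The median tested gene stood at 3.52 RPKM in control cells, so HEY1 (percentile 49.7) and JAG1 (46.8) were near the middle of the transcriptome, and HES1 (11.7) and JAG2 (10.3) near its lower end.

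The genes whose levels over the 6 libraries were most like those of NOTCH3, the member with the smallest p, were CMKLR2 (Pearson's r = 0.998), CD22 (0.998), DDX10 (0.997), TFPI2 (0.997) and STK40 (0.997). All 5 also had higher levels with RSL3, with log2 fold changes from 0.38 to 1.09. With only 6 libraries in 2 groups, 747 genes had an r over 0.95, so this likeness cannot be told apart from the difference between the groups.

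The rest of the pathway moved in both directions. Of 64 further genes listed by role, 61 had an identifier and 51 were tested, of which 13 rose and 14 fell (52.9% called, against 25.6% of all tested genes). Their median log2 fold change was 0.01, against -0.0044 over all tested genes. In DESeq2 the count was 16 with 1 surrogate variable (31.4%, against 21.1% of all genes tested in that fit) and 8 with 2 (15.7% against 15.6%), so that with 2 the share called was that of all genes. With 1 library left out the count lay between 13 and 20, the lowest without RSL3 replicate 2 (25.5% against 18.6%).

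**Figure D4:**
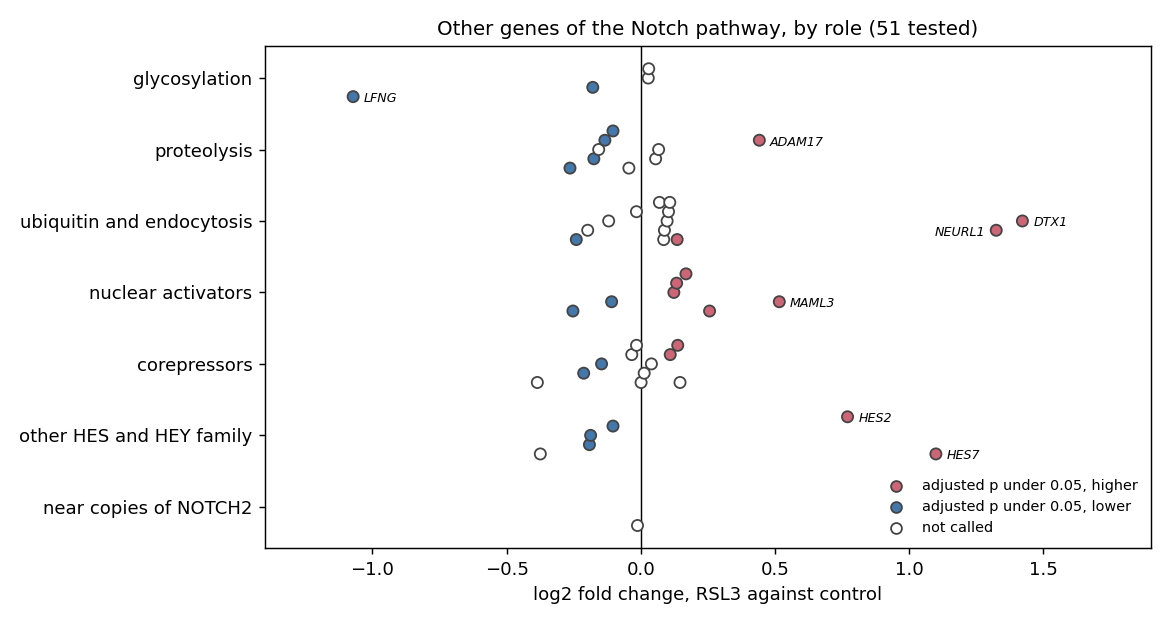
The x axis is the log2 fold change of RSL3 against control for 51 further pathway genes, in rows by role, with red for genes called higher, blue for genes called lower and white for genes not called. Most points lie close to 0, and LFNG on the left and NEURL1, DTX1 and HES7 on the right lie beyond 1.

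Among the enzymes that put sugars on the receptors, 2 of 4 tested genes fell and 0 rose (50% called, against 25.6% of all tested genes). LFNG, a Fringe glycosyltransferase that alters which ligands a receptor answers to, had 181, 130 and 139 normalized counts in control and 65.5, 65.4 and 83.9 in RSL3 libraries. The groups were far apart. Its log2 fold change, -1.07 with a standard error of 0.18 (edgeR adjusted p = 9.62e-05), was the largest decrease in the list, and it was called in all 18 alternatives. POGLUT1, which adds glucose to the receptors, fell by 0.18 on the log2 scale (edgeR adjusted p = 0.0462) and was called in 9 of 18 alternatives, and without RSL3 replicate 2 the value was -0.10 (edgeR adjusted p = 0.317). POFUT1, which adds fucose, was not called (0.03, edgeR adjusted p = 0.586).

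The sheddases that make the first cut in an activated receptor went in opposite directions. ADAM17 rose by 0.44 on the log2 scale, with means of 3779 ± 24.6 normalized counts (SD, n = 3) in control and 5135 ± 272 (SD, n = 3) in RSL3 libraries (edgeR adjusted p = 1.43e-08). ADAM10 fell, with means of 7781 ± 315 (SD, n = 3) and 6477 ± 250 (SD, n = 3) normalized counts and a log2 change of -0.26 (edgeR adjusted p = 1.02e-05). Neither pair of groups overlapped, and both calls were made in all 18 alternatives. Other genes, IAH1 above all, cover 11.7% of the exon bases of ADAM17. The presenilin PSEN2, a catalytic subunit of gamma-secretase, fell (-0.17, edgeR adjusted p = 0.00969), a call lost without control replicate 1 (-0.15, edgeR adjusted p = 0.0568) and in DESeq2 with 2 surrogate variables (-0.17, adjusted p = 0.135). Another gene model shares 38.7% of the exon bases of PSEN2, but that model is not among the identifiers that were counted. Of the 9 protease genes tested, 1 rose, 4 fell and 4 were not called (55.6% called, against 25.6% of all tested genes).

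Genes for ubiquitin ligases and endocytic adaptors of the pathway were mostly not called (9 of 13), with 3 higher and 1 lower. The share called was 30.8%, near the 25.6% of all tested genes. NEURL1, related to the Drosophila ligand regulator neuralized, had 40.1, 64.0 and 55.4 normalized counts in control and 141, 150 and 103 in RSL3 libraries, or 1.32 on the log2 scale with a standard error of 0.21 (edgeR adjusted p = 5.12e-05), and was called in all 18 alternatives. DTX1, a Deltex ligase that is itself described as a Notch target, was low. It had 12.6, 4.92 and 14.8 normalized counts in control and 18.4, 45.7 and 26.0 in RSL3 libraries, with a log2 fold change of 1.42 (edgeR adjusted p = 0.0175). Without RSL3 replicate 2 the value was 0.99 (edgeR adjusted p = 0.183) and without control replicate 2 it was 1.14 (edgeR adjusted p = 0.0694), and the call was also lost in DESeq2 with 2 surrogate variables (adjusted p = 0.0766). DTX3L, its relative in DNA damage signalling, fell (-0.24, edgeR adjusted p = 7.67e-05).

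All 7 genes of the nuclear activator group were called in edgeR, 5 higher and 2 lower, against 25.6% of all tested genes. In DESeq2 with 2 surrogate variables only 1 of them, MAML1, was called (14.3%, against 15.6% of all genes tested in that fit). With 1 library left out 4 to 6 were called, the fewest without RSL3 replicate 2 (57.1% against 18.6%). In the main edgeR fit the Mastermind coactivators split. MAML1 rose by 0.26 on the log2 scale, between means of 843 ± 7.79 and 1006 ± 32.7 normalized counts (SD, n = 3; edgeR adjusted p = 0.00149). MAML3 rose by 0.52, between means of 170 ± 30.6 and 241 ± 9.49 (SD, n = 3; edgeR adjusted p = 0.00578). MAML2 fell (-0.25, edgeR adjusted p = 0.0415). RBPJ, the DNA-binding partner itself, fell slightly (-0.11, edgeR adjusted p = 0.0177), and the acetyltransferase gene CREBBP rose (0.17, edgeR adjusted p = 0.00484). MAML2 and RBPJ were named after their values were seen, to complete the group. The call of MAML3 was lost without control replicate 1 (0.36, edgeR adjusted p = 0.0512) and in DESeq2 with 2 surrogate variables (0.51, adjusted p = 0.0727), where that of CREBBP was also lost (0.17, adjusted p = 0.0701). MAML1 was called in all 18 alternatives. The call of MAML2 was lost in DESeq2 with 0, 1 or 2 surrogate variables, without a filter and after thinning. It was also lost with any 1 library left out except control replicate 1. The call of RBPJ was lost without control replicate 2, RSL3 replicate 1 or RSL3 replicate 3, and in DESeq2 with 2 surrogate variables.

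Among 11 corepressor genes, 2 rose, 2 fell and 7 were not called (36.4% called, against 25.6% of all tested genes). In DESeq2 the share was 18.2% with 0 surrogate variables (against 22.5%), 9.09% with 1 (against 21.1%) and 9.09% with 2 (against 15.6%). With 1 library left out it lay between 0% without control replicate 1 (against 21.5%) and 36.4% without control replicate 2 (against 22.4%). SPEN, which holds RBPJ targets silent, rose (0.11, edgeR adjusted p = 0.0298), and CIR1 fell (-0.15, edgeR adjusted p = 0.0285). The calls of CIR1 and SPEN were made in 11 and 13 of 18 alternatives. TLE2, a Groucho-type corepressor named after its values were seen, had the lowest estimate, -0.39, with a wide 95% interval from -1.11 to 0.33 (edgeR adjusted p = 0.474).

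Of 10 other HES and HEY family genes, 6 were tested, with 2 higher and 3 lower (83.3% called, against 25.6% of all tested genes). In DESeq2 16.7% were called with 0, 1 or 2 surrogate variables, against 22.5%, 21.1% and 15.6% of all genes tested. With 1 library left out the share lay between 16.7% and 66.7%. It was lowest without RSL3 replicate 1 (against 19.6%) and without RSL3 replicate 2 (against 18.6%). HES7, the oscillating segmentation gene, had 36.9, 27.1 and 31.4 normalized counts in control and 70.1, 67.5 and 69.9 in RSL3 libraries (log2 fold change 1.10, edgeR adjusted p = 0.00134), a clear separation that was called in all 18 alternatives. HES2 rose by 0.77, between means of 36.1 ± 7.68 and 62.3 ± 14.5 normalized counts (SD, n = 3; edgeR adjusted p = 0.0334), and was called in 10 of 18. BHLHE40, a related stress-responsive repressor, fell (-0.19, edgeR adjusted p = 0.00772) with overlapping groups, in 12 of 18. HEY2 was not called (-0.37, edgeR adjusted p = 0.211), and HES5 and HEYL, which are standard Notch targets, had 0 counts in all 6 libraries. The receptor and ligand genes outside the members were not expressed at a testable level. In any library they had at most 10 counts (DLK2), 4 (NOTCH4), 2 (DLL3), 1 (DLL4) and 0 (DLK1).

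**Figure D5:**
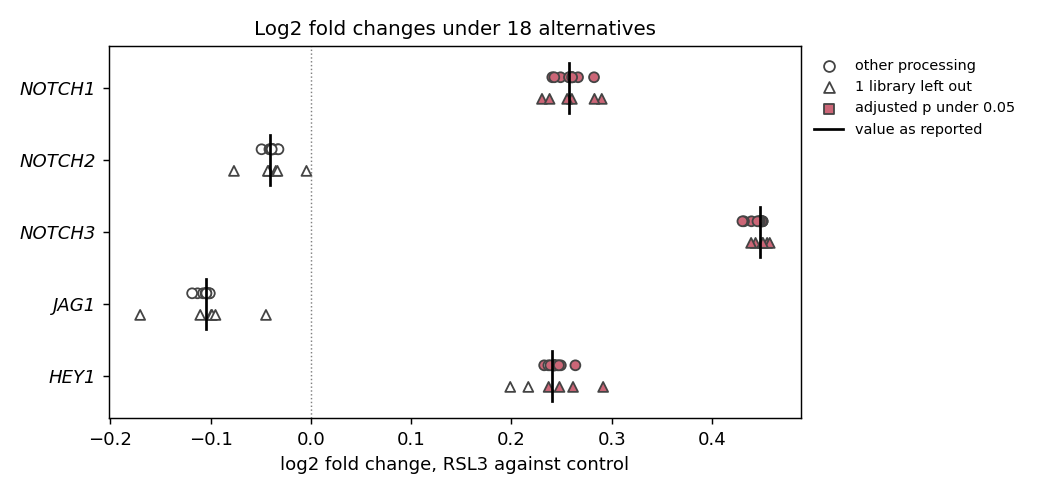
The x axis is the log2 fold change of RSL3 against control for 5 members, with a black line at the reported value, circles for 12 other processing choices and triangles for 6 fits with 1 library left out; red marks an adjusted p under 0.05. NOTCH1 and NOTCH3 are red throughout, HEY1 has 3 white symbols, and NOTCH2 and JAG1 are white throughout.

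Base composition was compared because NOTCH1 and NOTCH3 are rich in GC (63.2% and 62.4% of exon bases). In the tenth of genes richest in GC the median log2 fold change was 0.02, and in the tenth poorest in GC it was -0.02. After each library's dependence on GC content was taken out by offsets, the log2 fold change was 0.43 for NOTCH3 (edgeR adjusted p = 7.13e-09), 0.24 for NOTCH1 (edgeR adjusted p = 0.00214) and 0.25 for HEY1 (edgeR adjusted p = 0.00873), and the 3 calls held. NOTCH1, NOTCH2, NOTCH3, HES1, HES4 and HEY1 share no exon base with another gene of the annotation.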

How the data were processed

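Poly(A) RNA of U87MG cells was sequenced in read pairs from 6 libraries, 3 control and 3 RSL3, grouped by the treatment label. Per the labels and the study's methods, the authors used Trimmomatic 0.36 and Fastp for trimming, HISAT2 for alignment to GRCh38.p4 and HTSeq 0.6.1p1 for unstranded counting on the exons of each gene. They deposited raw counts per Ensembl gene, without normalization. The annotation release used for counting is not given in the sources used here, and exon lengths, GC content and overlaps come from GENCODE v44 (GRCh38).

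The main test was that of edgeR 4.0.16 in R 4.3.3 (filterByExpr with a minimum count of 10, TMM, quasi-likelihood F test, Benjamini-Hochberg adjustment over the 16105 genes tested, threshold 0.05, no covariates). Symbols were matched for 56434 of 65988 identifiers. Standard errors and 95% intervals were derived from the F statistic. Total counts per library, 27813462 to 43306335, set the precision for scarce genes. Per-length values divide normalized counts by the union of exons. The test was tested on simulated counts, where estimates were close to the true changes and false calls rare, but many changed genes in the lower range of expression were missed. Recovery at the smaller fold fell short of the level first required, and the requirement was then limited to genes in the upper range.

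The members and gene lists were chosen with earlier results of these data known. Named were the 10 members, in each role of the wider list the up to 3 genes with the smallest p, the other receptors, ligands and close HES and HEY relatives, and the 5 genes most like the member with the smallest p. A gene that this rule names is not reported here. Alternatives were other size factors, filters, thresholds, DESeq2 1.42.0 with 0, 1 or 2 surrogate variables from sva 3.50.0 (svaseq, on genes whose normalized count averaged over 1), edgeR with 1 surrogate variable, GC offsets (loess, span 0.3), a replicate block, thinning to the smallest total and each library left out. The study used DESeq2 after surrogate variable analysis without giving the number of variables.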

Additional observations from a re-analysis of the deposited data

How the results depend on the processing

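NOTCH1 and NOTCH3 were called higher in all 18 alternative fits, and HEY1 in 15. Of 126 recomputed member fold changes, 123 kept direction and side of the threshold, and the other 3 are those of HEY1 given above. No member passed when a log2 change of 1 or more in either direction was also required (0 of 10), and 4 genes of the wider list did, 3 higher and 1 lower. Over all genes, that requirement left 213 (106 higher, 107 lower), an adjusted p under 0.01 left 2691 (1348 higher, 1343 lower), and DESeq2 with 2 surrogate variables called 2268 (1159 higher, 1109 lower). With 1 library left out the count over all genes lay between 3081 and 3924, and the members called numbered 2 or 3.

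For the wider list, an adjusted p under 0.01 left 13 genes (8 higher, 5 lower). DESeq2 called 6 genes lower without surrogate variables, 16 in all with 1 (6 lower) and 8 with 2 (5 higher, 3 lower). With 1 library left out the counts were 13 to 20 in all, 8 to 12 higher and 5 to 10 lower, and the cause was not tested. Of 359 fold changes of other named genes, 44 lost their call and 3 changed sign, all in NOTCH2NLA, which was not called (0.0144 without control replicate 2, 0.034 without control replicate 3 and 0.0368 without RSL3 replicate 2, in a range from -0.0895 to 0.0368). Without division by length, the share of NOTCH2 differed by -4.13 percentage points in place of -5.74 and that of NOTCH3 by 3.52 in place of 5.12. With 1 library left out these per-length differences were -6.20 to -5.35 for NOTCH2, 4.81 to 5.40 for NOTCH3 and 0.51 to 0.80 for NOTCH1.

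Control and RSL3 libraries share replicate numbers, but the deviations of same-numbered libraries from their group means correlated at only 0.0274, 0.0274 and 0.0701, so the numbers were not taken to pair them. Each library did correlate best with its own number, a hint from the data and not the design. With the replicate number as a block edgeR called 4633 genes in place of 4123, the same 3 members and 27 genes of the wider list. Depth limits HES1, HES4 and JAG2, whose counts of at most 68 per library leave wide intervals or no test.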
